A study of Mus musculus with 18 samples.

Results

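The growth hormone and STAT5 axis was followed in the liver through 10 genes, namely Ghr, Stat5b, Igf1, Igfals, Socs2, Cish, Bcl6, Hsd3b5, Elovl3 and Serpina12. They were found by their symbols among the gene probes of the array, which gave 18 of 39429 probes: 5 for Igf1, 3 for Socs2, 2 each for Ghr and Stat5b, and 1 for each other gene. Of the 10 genes, 9 entered the test over 15951 genes. Hsd3b5 did not, because too many of its spots had been marked as uneven or deviating by the image software, and its values are given with marked spots kept.

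Livers came from 18 male mice of the inbred strain C57BL/6J, killed at 13 weeks of age after 5 weeks on a high-fat diet. The LIN group (8 mice) received linseed oil, whose fat was 66.7% polyunsaturated, 22.5% monounsaturated and 9.7% saturated, with 49.7% alpha-linolenic acid. The PALM group (10 mice) received palm oil, whose fat was 8.8% polyunsaturated, 34.8% monounsaturated and 55.6% saturated. Both diets gave 51.1% of energy as lipid and no group here had a low-fat diet, so every value is a contrast between 2 high-fat diets. Each liver was measured on its own 1-colour Agilent array. Values are log2 of the background-subtracted spot intensity minus the array's 75th percentile, and differences are LIN minus PALM on that log2 scale, ± SE from limma, with p adjusted over all genes tested.

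Growth hormone from the pituitary binds its receptor, encoded by Ghr, on hepatocytes. The receptor activates the kinase JAK2, which phosphorylates the transcription factor STAT5B, and STAT5B then turns on target genes such as Igf1. Cish and Socs2 are induced by STAT5 and feed back to damp the receptor, whereas BCL6 is a repressor that binds DNA motifs overlapping those of STAT5. In rodents, growth hormone is secreted in pulses in males and more steadily in females, and many liver genes of sex-biased expression depend on that pattern.

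The promoters of 8 of the 10 genes were matched by symbol in RefSeq (GRCm38.p6), as 13 windows of 300 bases from 250 before to 50 after an annotated start. They were searched for TTCNNNGAA, the palindromic core that STAT5 binds, which reads the same on both strands, and for TTCCTNGAA, a form of it that BCL6 can also bind, on both strands. TTCNNNGAA was present in 5 windows of 3 genes, Cish, Bcl6 and Igfals, and in none of those of Ghr, Stat5b, Igf1, Hsd3b5 or Serpina12. Across 32851 mouse promoter windows of the same length, 8.30% held TTCNNNGAA at least once, 0.457% held it 2 or more times and 0.0335% held it 3 or more times; 1.59% held TTCCTNGAA. The windows of Cish and Bcl6 are shown because these genes varied most between mice, and that of Serpina12 because it differed between diets. Each is written 5′ to 3′ on the gene's strand, with TTCNNNGAA in capitals; the windows are chr9:107296409-107296708 (+ strand) for Cish, chr16:23988803-23989102 (- strand) and chr16:23981234-23981533 (- strand) for Bcl6, and chr12:104044394-104044693 (- strand) for Serpina12.
Cish: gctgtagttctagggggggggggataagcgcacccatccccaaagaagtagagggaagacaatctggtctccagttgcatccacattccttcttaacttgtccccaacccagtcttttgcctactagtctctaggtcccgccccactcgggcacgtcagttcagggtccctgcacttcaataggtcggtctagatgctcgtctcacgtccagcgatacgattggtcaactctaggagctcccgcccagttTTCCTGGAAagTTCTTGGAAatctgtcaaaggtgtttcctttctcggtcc
Bcl6, upstream start: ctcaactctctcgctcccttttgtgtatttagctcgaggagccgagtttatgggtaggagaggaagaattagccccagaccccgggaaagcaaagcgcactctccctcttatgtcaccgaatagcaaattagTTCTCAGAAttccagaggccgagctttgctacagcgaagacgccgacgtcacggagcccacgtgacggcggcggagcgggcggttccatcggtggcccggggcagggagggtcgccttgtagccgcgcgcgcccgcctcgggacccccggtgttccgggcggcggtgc
Bcl6, downstream start: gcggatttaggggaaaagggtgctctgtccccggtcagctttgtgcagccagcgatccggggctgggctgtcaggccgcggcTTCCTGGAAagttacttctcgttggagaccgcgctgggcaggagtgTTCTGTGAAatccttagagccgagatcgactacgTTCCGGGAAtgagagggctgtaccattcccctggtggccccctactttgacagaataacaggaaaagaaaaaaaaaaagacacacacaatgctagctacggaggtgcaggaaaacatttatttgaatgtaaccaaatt
Serpina12: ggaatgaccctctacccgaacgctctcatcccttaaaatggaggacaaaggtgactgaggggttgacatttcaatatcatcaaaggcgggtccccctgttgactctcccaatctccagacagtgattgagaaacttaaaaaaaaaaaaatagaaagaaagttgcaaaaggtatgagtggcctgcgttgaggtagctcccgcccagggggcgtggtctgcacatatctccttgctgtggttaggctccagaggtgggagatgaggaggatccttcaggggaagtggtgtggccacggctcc

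The Cish window held TTCCTGGAA, which is also a match to the BCL6 form, beginning at base 1 of the transcript, and TTCTTGGAA beginning at base 12. The window at the upstream Bcl6 start held TTCTCAGAA 118 bases before the start. The window at the downstream Bcl6 start held 3 copies, of which TTCCTGGAA, 168 bases before the start, was the BCL6 form. One Igfals window held TTCCTAGAA, also the BCL6 form, 58 bases before its start, and another held TTCTCAGAA 236 bases before its start. A match is a description of the letters and was not tied to binding here.

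Of the 9 tested genes, Serpina12 passed an adjusted p of 0.05 and the other 8 did not; 0.759% of all genes tested passed. Among the 9, 3 were higher and 6 lower on LIN, with a median difference of -0.087, beside -0.0038 over all genes. Serpina12 was lower on LIN, and entered the test through the PALM arrays, where it was high. Ghr, Stat5b and Igf1 had narrow intervals for their diet difference, Socs2, Cish and Bcl6 had wide ones, and Cish and Bcl6 spread more between mice of one diet than nearly all other genes. Whether fewer cells of a type or less RNA per cell gave a lower value cannot be told apart in whole liver.

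**Figure D1:**
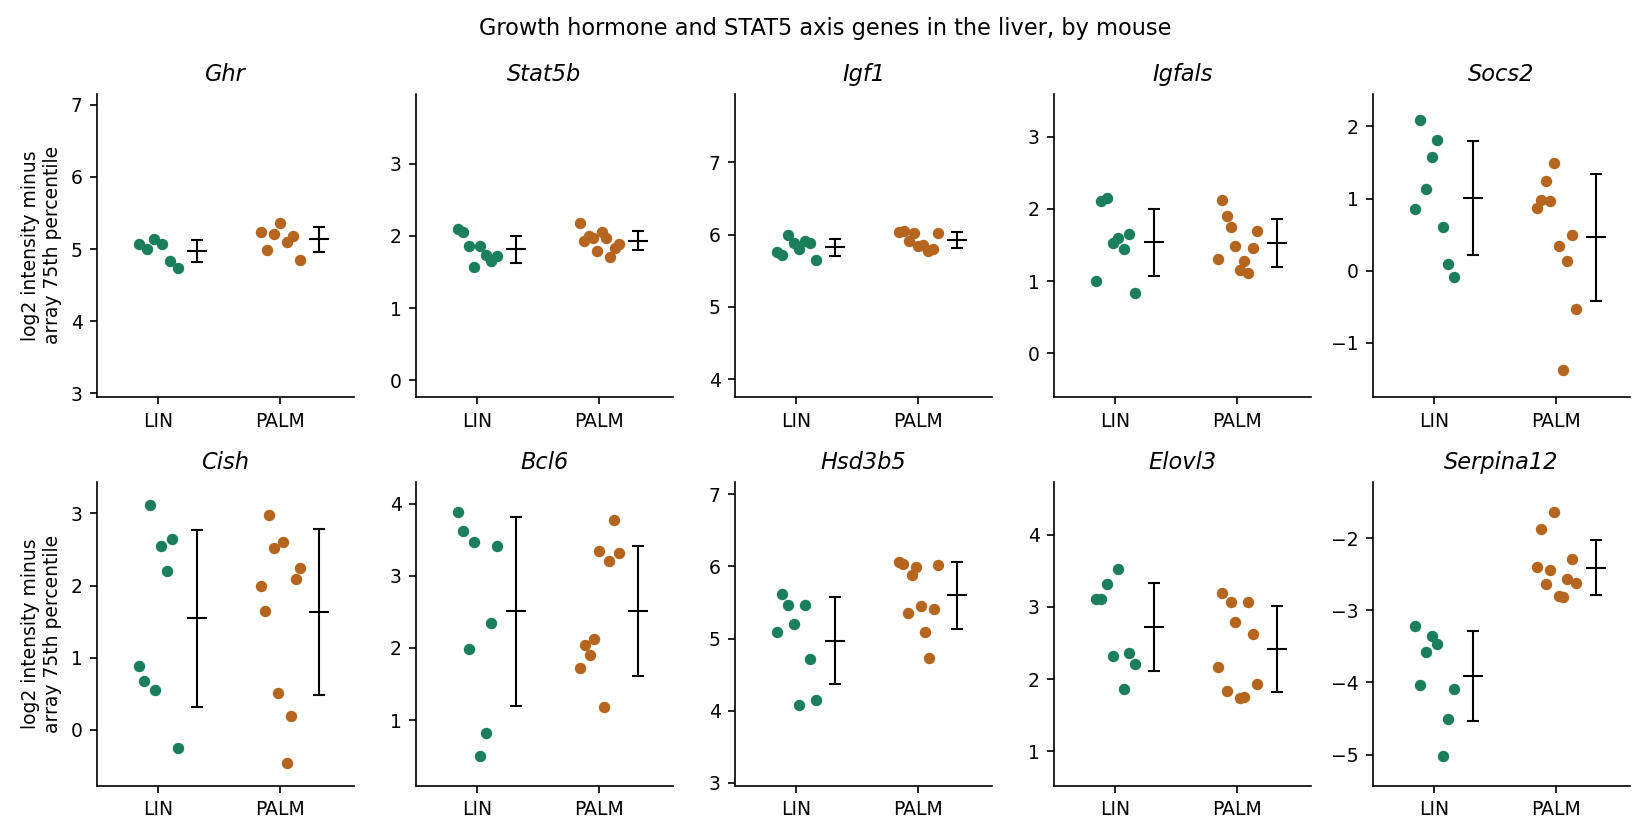
Scaled log2 intensity of each gene (vertical axis, log2 intensity minus the array's 75th percentile, with the same span in each panel) in LIN livers (left, green) and PALM livers (right, brown), 1 point per mouse, with mean and SD in black. Hsd3b5 is shown with marked spots kept. Serpina12 is the one panel in which the diets do not overlap, and Cish, Bcl6 and Socs2 have the widest scatter within a diet.

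At the top of the axis, Ghr was measured on 6 LIN and 7 PALM arrays with an unmarked spot. It had a lowest value of 4.74, a median of 5.03 and a highest value of 5.14 in LIN livers, against 4.85, 5.19 and 5.36 in PALM livers. The groups overlapped, and the difference was -0.16 ± 0.10 (adjusted p = 0.642). The second Ghr probe, with marked spots kept, differed by -0.22 ± 0.08 (adjusted p = 0.307 over all probes). Stat5b, the signal transducer itself, had values of 1.56 to 2.10 with a median of 1.80 in LIN livers and of 1.71 to 2.18 with a median of 1.95 in PALM livers, which overlapped. Its difference was -0.12 ± 0.08 (adjusted p = 0.675), and the second Stat5b probe gave -0.068 ± 0.080. The 95% interval of the difference ran from -0.36 to 0.05 for Ghr and from -0.28 to 0.05 for Stat5b.

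Igf1 encodes the main circulating growth factor made by the liver under growth hormone, and Igfals encodes the acid-labile subunit that keeps it in a stable complex in blood. The brightest Igf1 probe, at chr10:87393581-87393640 (+ strand, mm9, the build of the file headers), had values of 5.65 to 5.99 with a median of 5.84 in LIN livers and of 5.77 to 6.06 with a median of 5.92 in PALM livers. The diets overlapped, with a difference of -0.10 ± 0.07 (adjusted p = 0.645) and a 95% interval of -0.24 to 0.03. The other 4 Igf1 probes differed by -0.08 to 0.0050, the one at -0.08 with marked spots kept, and none of the 5 passed the test. Igfals had values of 0.84 to 2.15 with a median of 1.56 in LIN livers and of 1.11 to 2.13 with a median of 1.48 in PALM livers, and its difference was 0.012 ± 0.18 (adjusted p = 0.991). The sign of the Igfals difference turned under 12 of 33 other settings, so it is given no direction.

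The feedback inhibitors Socs2 and Cish and the repressor Bcl6 showed much larger spread within each diet than the receptor or Igf1. Socs2 had a lowest value of -0.088, a median of 0.99 and a highest value of 2.09 in LIN livers, against -1.38, 0.68 and 1.50 in PALM livers. Its range of 3.47 log2 units over all mice spanned both diets, and the lowest 2 livers were PALM livers. The difference was 0.55 ± 0.37 (adjusted p = 0.664), a 1.46-fold higher mean on LIN that the test did not separate from 0, and the other 2 Socs2 probes gave 0.52 ± 0.31 and 0.49 ± 0.35. Within slides Socs2 was higher on LIN in 4 of 5, by 0.25 to 0.97, and differed by -0.068 in the other.

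Cish, measured at chr9:107204196-107204255 (+ strand, mm9), had a lowest value of -0.25, a median of 1.54 and a highest value of 3.11 in LIN livers, against -0.45, 2.04 and 2.98 in PALM livers. Both diets held livers at both ends of the range. The difference was -0.087 ± 0.52 (adjusted p = 0.976), with a 95% interval of -1.18 to 1.00. Bcl6, measured at chr16:23965160-23965219 (- strand, mm9), had a lowest value of 0.51, a median of 2.88 and a highest value of 3.88 in 8 LIN livers, against 1.18, 2.13 and 3.77 in 9 PALM livers. The PALM range lay within the LIN range, and the difference was -0.0071 ± 0.50 (adjusted p = 0.999). With the marked spot of PALM mouse 7 kept, which at 4.32 was the highest Bcl6 value, the difference was -0.19 ± 0.51. The intervals of both genes include a 2-fold change in either direction.

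**Figure D2:**
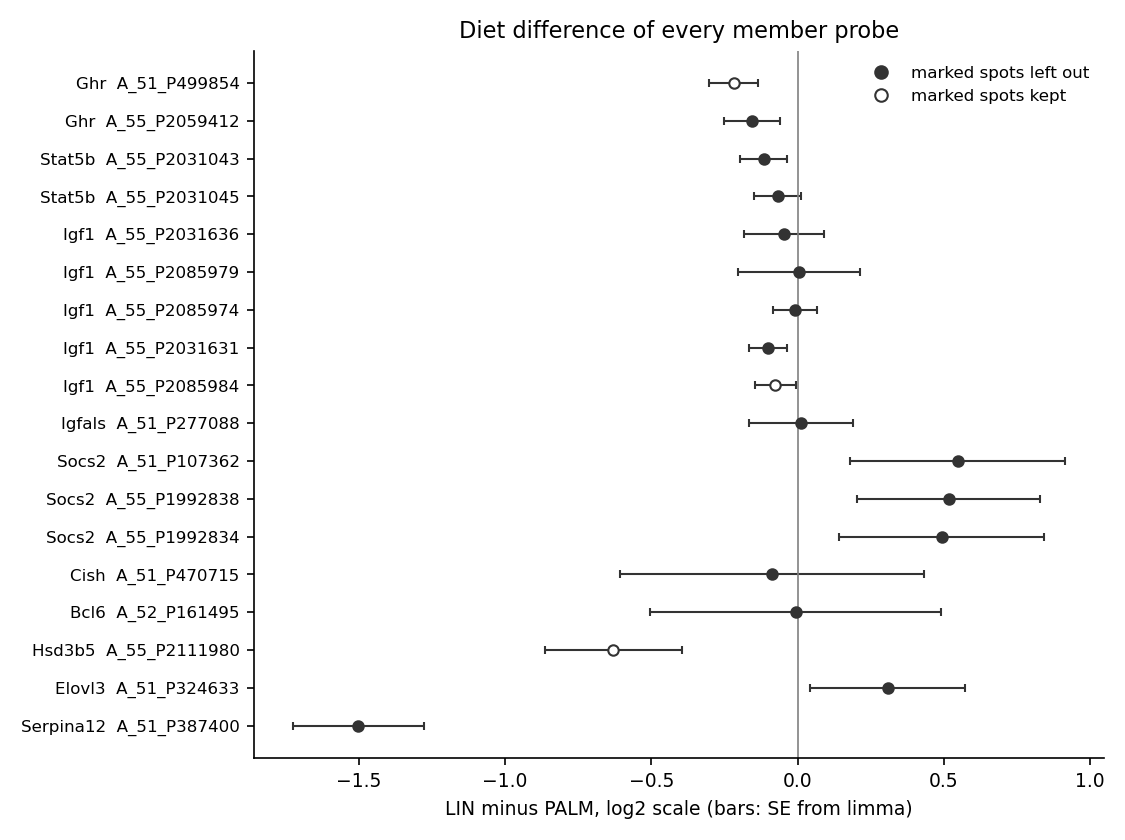
LIN minus PALM difference of each of the 18 member probes on the log2 scale (horizontal axis; bars are the SE from limma), listed by gene. Open circles are probes fitted with marked spots kept. The 3 Socs2 probes lie at 0.49 to 0.55, the 5 Igf1 probes at -0.10 to 0.0050, and Serpina12 at -1.50.

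The size of the spread that did not follow diet was set against all genes. The SD between mice within a diet was 1.18 log2 units for Cish, larger than that of 99.5% of the genes tested, 1.11 for Bcl6 (99.4%) and 0.84 for Socs2 (97.9%). The median SD over all genes was 0.24. Igf1 lay at the other end, with an SD of 0.11, larger than that of 5.12% of genes, and Ghr and Stat5b had SDs of 0.16. Over all mice the highest Cish value exceeded the lowest 11.8-fold and the highest Bcl6 value exceeded the lowest 10.3-fold, against 1.33-fold for the brightest Igf1 probe. Between these ends, Igfals had an SD of 0.40, Serpina12 of 0.50 and Elovl3 of 0.60.

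Cish and Bcl6 ran in opposite directions from mouse to mouse. Over 17 livers the diet-centred values correlated at r = -0.67 (permutation p = 0.00702) and rho = -0.62 (permutation p = 0.0161). After adjustment over the 36 pairs of tested genes neither passed (adjusted p = 0.126 and 0.146), and no other pair did: 8 of 36 pairs had an unadjusted p under 0.05 for r. Without the 2 livers farthest from the median r was -0.66, within LIN livers -0.76 (n = 8), within PALM livers -0.53 (n = 9), and after centring on slide and diet -0.71. With all 18 livers and marked spots kept r was -0.73 and the adjusted p over 45 pairs was 0.0624.

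With marked spots kept, the largest gap between neighbouring Cish values ran from 0.89 to 1.65, with 7 livers below it (4 LIN, 3 PALM) and 11 above it (4 LIN, 7 PALM). The 7 livers below the gap, PALM mouse 7 with its marked spot among them, all had Bcl6 values of at least 3.21. Of the livers above it, PALM mice 9 and 10, both on slide 5, had Bcl6 values of 3.77 and 3.31, and the others lay at 2.34 or lower. The correlation of Cish and Bcl6 was -0.13 below the gap and -0.19 above it; dividing the livers by Cish narrows its range, which can itself lower r.

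**Figure D3:**
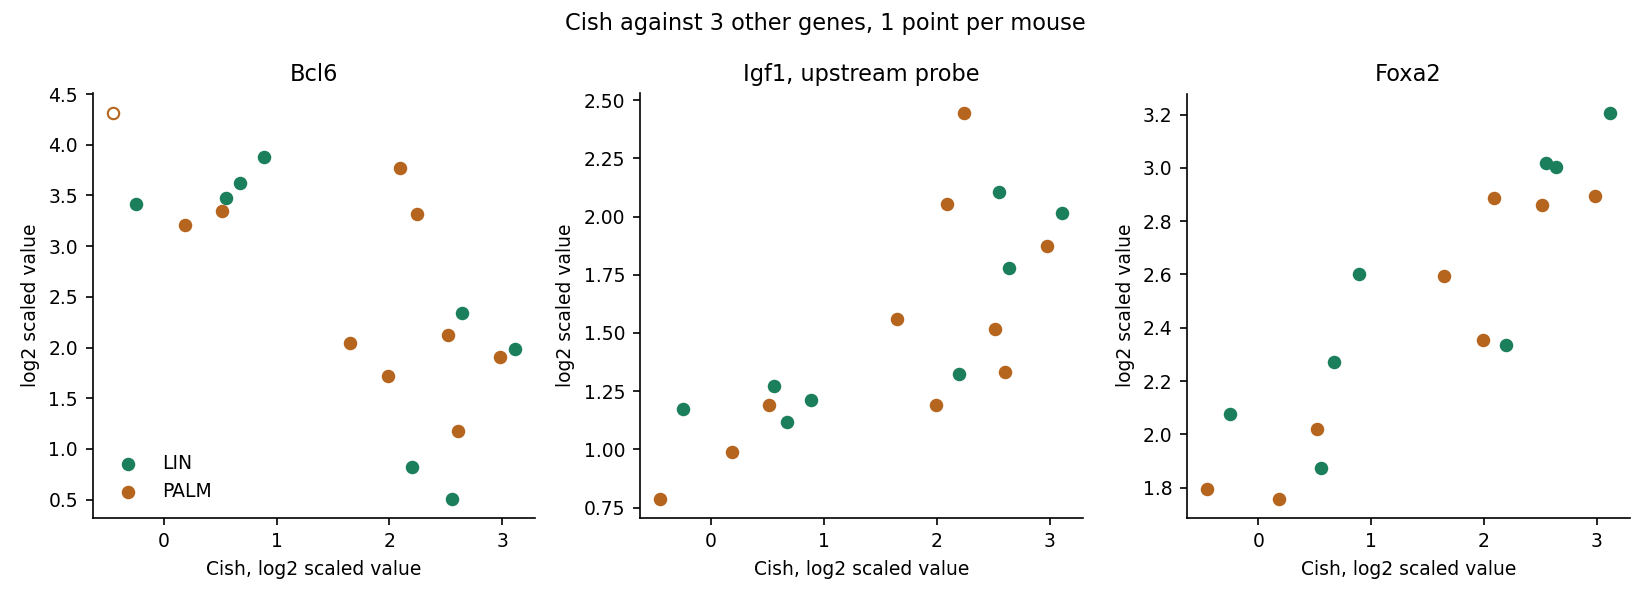
Cish (horizontal axis) against Bcl6 (left), the upstream Igf1 probe (middle) and Foxa2 (right), all as scaled log2 intensities, 1 point per mouse, LIN in green and PALM in brown. The open circle is the marked Bcl6 spot of PALM mouse 7, and Foxa2 has 16 mice with an unmarked spot. Livers of both diets occur at low and high Cish, with Bcl6 at 3.21 or more in the 7 livers of lowest Cish.

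Igf1 itself was nearly level between mice at its brightest probe, but not at all of them. The probe at chr10:87378456-87378515 (+ strand, mm9) lies 15046 bases upstream of the next Igf1 probe, and its transcript was not among the RefSeq transcripts of Igf1 used here. Its SD between mice was 0.46, against 0.11 for the brightest probe, with a mean of 1.50 ± 0.40 in LIN livers (SD, n = 8) and 1.49 ± 0.51 in PALM livers (SD, n = 10). Its values followed Cish at r = 0.75 (permutation p = 0.00067, adjusted over 5 relations 0.00335) and rho = 0.79 (permutation p = 0.00026, adjusted 0.0013), and r was 0.80 without the 2 farthest livers, 0.86 within LIN, 0.69 within PALM and 0.84 after centring on slide and diet. On the 2 sides of the Cish gap r was 0.72 (7 livers) and 0.27 (11 livers). This probe was set against Cish after the values had been seen. Its adjustment covers only its own 5 relations and leaves out the other Igf1 probes, so its adjusted p cannot be set beside those of the 36 pairs. The brightest Igf1 probe followed Cish at r = 0.62 (adjusted p = 0.149 over the 36 pairs).

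The genes whose pattern over mice was most like that of Cish were Rgs3, a regulator of G-protein signalling (r = 0.91 over 18 livers, rho = 0.90), and Foxa2, a forkhead factor that opens liver chromatin (r = 0.90 over 16 livers, rho = 0.92), out of 15366 genes compared. Neither passed the test between diets, at 0.063 ± 0.32 for Rgs3 (adjusted p = 0.971) and 0.15 ± 0.23 for Foxa2 (adjusted p = 0.879). For Bcl6 the most alike were Rbm26, an RNA-binding protein, at r = 0.85, and 9930104L06Rik at r = 0.83, and for Socs2 the CREB coactivator Crtc3 at r = 0.85 and the nuclear receptor Nr2f1 at r = 0.82. After centring on slide and diet the Cish values stood at 0.91 and 0.92 and the Socs2 values at 0.57 and 0.62.

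Liver transcription factors of sex-biased expression were next set against Cish and Bcl6, together with the genes of 5 other lists of the pathway and its targets, a comparison added after the data had been seen. Of 66 genes, 3 followed Cish at an adjusted p under 0.05 over 132 relations, all 3 positively, and 0 followed Bcl6. How many of all genes follow Cish as closely was not counted. The count of 3 therefore has no background share beside it and shows nothing particular to these lists. Foxa2 had already been named as one of the genes most like Cish in these same livers, so its p-values below are no separate support. Foxa2 correlated with Cish at r = 0.90 (permutation p = 5e-05, adjusted p = 0.00594) and rho = 0.92 (permutation p = 1e-05, the smallest that the resampling can give, adjusted p = 0.00132), Foxa1 at r = 0.81 (permutation p = 9e-05, adjusted p = 0.00594) and rho = 0.87 (permutation p = 3e-05, adjusted p = 0.00198). Cebpa, a driver of hepatocyte metabolism, followed at r = 0.79 (permutation p = 0.00026, adjusted p = 0.0114) and rho = 0.72 (permutation p = 0.00172), whose own adjusted p of 0.0757 did not pass. Without the 2 livers farthest from the median Cish value r was 0.89 for Foxa2, 0.76 for Foxa1 and 0.69 for Cebpa. All 3 kept their sign after centring on slide and diet, at 0.92, 0.82 and 0.85. On the 2 sides of the Cish gap r was 0.65 and 0.68 for Foxa2 with marked spots kept, 0.77 and 0.60 for Foxa1, and 0.65 and 0.23 for Cebpa. Onecut1, a liver factor that growth hormone induces in rat, correlated with Cish at r = 0.71 (permutation p = 0.00156, adjusted p = 0.0515) and did not pass.

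Array brightness and cell markers were placed beside these values. Cish was lower on arrays of higher 75th percentile intensity at r = -0.56 (permutation p = 0.0233, adjusted p = 0.177 over 18 relations) and rho = -0.65 (permutation p = 0.00786, adjusted p = 0.0623). Bcl6 went the other way with this intensity, at r = 0.49 (permutation p = 0.0726, adjusted p = 0.218) and rho = 0.58 (permutation p = 0.0293, adjusted p = 0.109). After centring on slide and diet r was -0.51 for Cish and 0.49 for Bcl6. Cish was higher where the summed hepatocyte markers were higher at r = 0.49 (permutation p = 0.0512, adjusted p = 0.191) and rho = 0.54 (permutation p = 0.0302, adjusted p = 0.109). Socs2 followed the summed Kupffer cell markers at r = 0.61 (permutation p = 0.0093, adjusted p = 0.167) and rho = 0.60 (permutation p = 0.0104, adjusted p = 0.0623), with r = 0.065 after centring on slide and diet. None of the 18 relations passed the adjustment. Their part in the spread of these genes, and that of array brightness in the opposite course of Cish and Bcl6, was not tested. All 10 hepatocyte markers were tested and 0 were called (limma; 1 had an unadjusted p under 0.05), with a summed level of 2388 to 4118 times the array's 75th percentile in LIN livers and 2668 to 3766 times in PALM livers.

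Among the remaining members, Hsd3b5, Elovl3 and Serpina12, only Serpina12 was called. Hsd3b5, a male-specific steroid reductase of mouse liver, had a lowest value of 4.07, a median of 5.15 and a highest value of 5.62 in LIN livers, against 4.74, 5.67 and 6.06 in PALM livers. The groups overlapped, with the lowest values in LIN livers and the highest in PALM livers. The difference was -0.63 ± 0.24, and at an adjusted p of 0.311 over the 16544 genes tested with marked spots kept it did not pass (0.901% of those genes did). Within slides it was lower on LIN in 4 of 5, with differences of -1.65 to 0.18. Elovl3, a fatty acid elongase with higher expression in male liver, had values of 1.86 to 3.52 with a median of 2.73 in LIN livers and of 1.74 to 3.20 with a median of 2.39 in PALM livers. The diets overlapped, with a difference of 0.31 ± 0.27 (adjusted p = 0.765).

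Serpina12, which encodes vaspin, a serpin first described as a product of visceral fat, was lower on LIN. Its probe at chr12:105267099-105267158 (- strand, mm9) had a lowest value of -5.02, a median of -3.81 and a highest value of -3.21 in LIN livers, against -2.81, -2.51 and -1.63 in PALM livers. Every LIN liver lay below every PALM liver on the scaled values, which held for 0.219% of all genes in either direction and 0.0627% in this direction. The probe was kept through the PALM arrays, where it was high, so these shares describe the separation and are no support for it. The difference was -1.50 ± 0.22 (adjusted p = 0.00218), with a 95% interval of -1.97 to -1.03. It was lower on LIN within all 5 slides, with differences of -2.07 to -0.93, and with slide as a block the difference was -1.48 ± 0.19 (adjusted p = 0.00186). On slides 1, 4 and 5, though, no LIN array was well above background at this probe. Only slides 2 and 3 compared LIN signals above background, with differences of -1.49 and -0.93.

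The probe was dim, however. It was well above background on 4 of 8 LIN arrays and on 10 of 10 PALM arrays, so it met the minimum of 8 arrays through PALM, and the size of its difference depends on LIN signals near background. Its intensity before scaling was 4.90 to 22.0 with a median of 10.6 in LIN livers and 19.9 to 60.0 with a median of 31.9 in PALM livers, so the unscaled ranges overlapped. Normexp, another background correction, was run with an offset of 50, a constant added to every signal that compresses dim ones. With normexp the values were -1.87 to -1.36 in LIN livers and -1.52 to -0.67 in PALM livers. The difference was -0.38 ± 0.11 and the call was lost (adjusted p = 0.175). How much of this change came from the offset was not tested. Without slides 4 and 5 the difference was -1.23 ± 0.22 (adjusted p = 0.0526), and the probe is not in the authors' deposited value table.

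**Figure D4:**
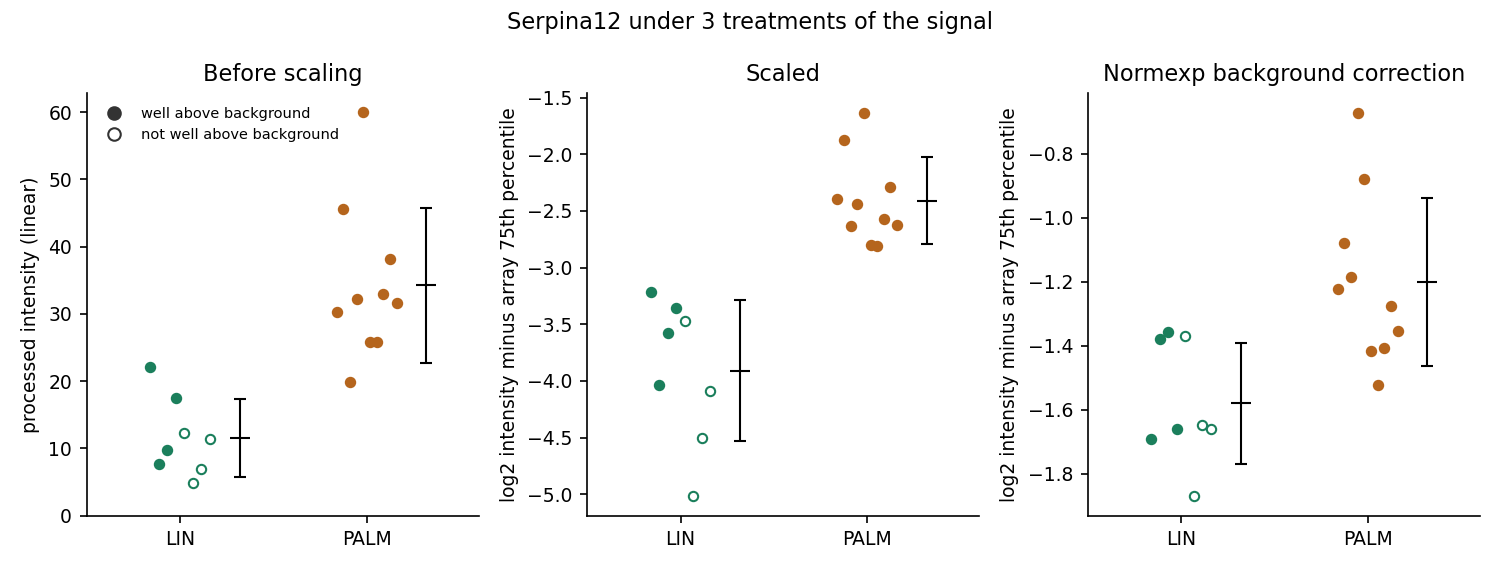
Serpina12 in LIN livers (left, green) and PALM livers (right, brown): processed intensity on a linear axis, the scaled log2 value, and the scaled log2 value after normexp correction; 1 point per mouse, with mean and SD in black. Open circles are arrays on which the probe was not well above background, which are 4 LIN arrays. The groups are apart in the middle panel and overlap in the other panels.

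Adipocyte markers were mostly too dim to test. Of 6, Adipoq, Plin1, Lep and Retn were above background on 4, 3, 0 and 4 of the 18 arrays. Cfd, the adipocyte protease adipsin, had values of 0.84 to 5.17 in LIN livers and of -3.04 to 3.34 in PALM livers (2.54 ± 0.88, adjusted p = 0.278), opposite in sign to Serpina12, and Adrb3 differed by -0.18 ± 0.17. The summed level of these 2 was 2.65 to 37.4 times the array's 75th percentile in LIN livers and 1.29 to 11.2 times in PALM livers, and its part in the Serpina12 result was not tested. Between mice Serpina12 followed Elovl3 at r = 0.66 (permutation p = 0.00416, adjusted p = 0.126 over the 36 pairs) and rho = 0.67 (permutation p = 0.00371, adjusted p = 0.134). The r was 0.55 without the 2 farthest livers, 0.68 within LIN, 0.66 within PALM and 0.60 after centring on slide and diet. The pair did not pass the adjustment. Serpina12 was well above background on only 4 of 8 LIN arrays, so the r within LIN and over all livers rests partly on values near background.

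No other gene of the signalling pathway passed the test. Over all 15951 genes tested, 1621 had an unadjusted p under 0.05 (limma), which is the background for such counts in the lists. Among 18 genes of growth hormone receptor signalling, from the kinase Jak2 to the phosphatases and adaptors, 0 were called (limma; 0 had an unadjusted p under 0.05), with a median difference of 0.03 and a range of -0.28 to 0.33, beside a median of -0.0038 over all genes. Ptpn6, the phosphatase SHP-1, had the smallest p, at 0.16 ± 0.08 (adjusted p = 0.541). In the IGF system 0 of 9 tested genes of 13 were called (1 had an unadjusted p under 0.05), with a median of -0.02; Igfbp4, a binding protein that holds IGF1 from its receptor, had the smallest p at -0.18 ± 0.07 (adjusted p = 0.335). Of 9 other STAT5 targets 0 were called (0 had an unadjusted p under 0.05), with a median of -0.0031 and the smallest p for Fos, an immediate early factor, at -0.74 ± 0.41 (adjusted p = 0.575).

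Genes known for sex-biased liver expression were counted by the direction of their bias. Of 18 male-biased genes 10 were tested and 0 were called (1 had an unadjusted p under 0.05), with a median of 0.08 and differences of -0.34 to 0.56. Susd4, a complement regulator, had the smallest p at -0.32 ± 0.15 (adjusted p = 0.486). Of 25 female-biased genes 12 were tested, and 4 had an unadjusted p under 0.05, beside 1621 of all 15951 genes. After adjustment 3 rose on LIN and 0 fell, against 0.570% of all genes that rose. The median of the 12 was 0.26, but 11 further genes of the list were too dim to test in these male livers, among them Cyp2b9, Cyp2b13 and Sult2a1, so that count leaves out the dim members.

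The 3 that rose were Cyp3a41b, a female-specific monooxygenase of adult mouse liver, with 2.08 to 2.86 in LIN livers and -0.65 to 0.83 in PALM livers (2.33 ± 0.20, adjusted p = 2.62e-06), its relative Cyp3a16 (2.31 ± 0.18) and the peroxisomal thioesterase Acot3 (1.91 ± 0.31, adjusted p = 0.0044). The Cyp3a genes have near-identical copies, and which copy a probe reads is uncertain. Without slide 1, and without slides 4 and 5, Cyp3a16 and Cyp3a41b passed and Acot3 did not. With marked spots kept the fatty acid hydroxylase Cyp4a14 also rose, by 2.92 ± 0.34 (adjusted p = 0.000205 over the 16544 genes). Acot3 and Cyp4a14 are also known as targets of the fatty acid receptor PPARα. The other 9 tested genes of the list did not pass; 4 were higher and 5 lower on LIN, from -0.32 ± 0.28 for Prom1 (adjusted p = 0.764) to 0.71 ± 0.21 for the fatty acid transporter Cd36 (adjusted p = 0.168). Among liver transcription factors of sex bias 0 of 12 tested were called (2 had an unadjusted p under 0.05), with a median of 0.06; the oestrogen receptor Esr1 had the smallest p at -0.62 ± 0.20 (adjusted p = 0.213).

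**Figure D5:**
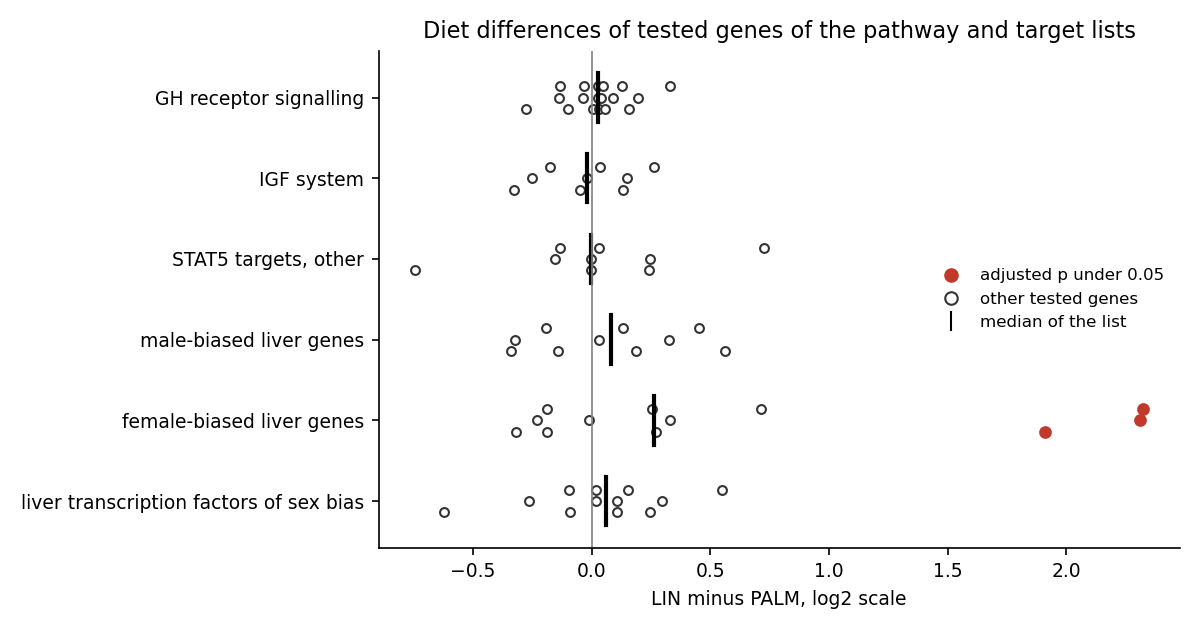
LIN minus PALM differences on the log2 scale (horizontal axis) of the tested genes of 6 lists, 1 point per gene, with red points for an adjusted p under 0.05 and black bars for each list's median. The 3 red points, between 1.91 and 2.33, are Acot3, Cyp3a16 and Cyp3a41b of the female-biased list; the other lists hold no red point.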

How the data were processed

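RNA of 18 livers (8 LIN, 10 PALM, grouped by sample title) was labelled with Cy3 from 1 µg of total RNA, per the labels' protocols. Per the file headers, the authors' spot intensity values come from Agilent Feature Extraction 9.5.3.1, background-subtracted within each array. Feature Extraction 9.5 and limma are the tools listed in the submitters' processing notes. The authors' deposited value table holds log2 values of 18060 probes, with no zero point or gene centring given (array medians 7.8476 to 7.8519); how it was scaled is not stated, and it was used as an alternative only.

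Values were log2 processed intensity minus each array's 75th percentile over non-control probes. Spots marked non-uniform or as population outliers were left out (238 to 1703 per array) and saturated spots kept. Probes needed a signal well above background on 8 or more arrays and a measurement on 6 or more arrays per diet, and each gene was represented by its brightest such probe. Between 17282 and 22473 probes per array were well above background, and the number of arrays limits the precision. The test between diets was limma 3.58.1 under R 4.3.3 (lmFit and eBayes, two-sided, Benjamini-Hochberg over all genes), tested on simulated data. The simulated arrays had independent noise and no slides, so they cannot show how the test behaves with the slide differences found here. Correlations used 100000 permutations within diet (two-sided). Nothing says whether mice shared cages, so p-values measure the spread between these mice. That spread includes differences between slides, because neither the main fit nor the permutations took slide into account.

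The members and lists were chosen with earlier results of these data known. Named are all members, up to 4 called genes of each list or the 1 of smallest p, and the 2 genes most like each member; genes named beside these were chosen after their values were seen. Probe names were updated through RefSeq (accession match 26055, symbol match 3195, synonym match 930), while 9249 stayed as in the files. The 5 slides each held both diets; slide 1 is 3 arrays whose headers give no slide barcode but which share a barcode in the deposited file titles and a scan time of their own. Slide explained a share of 0.938 of the leading residual component, so slide was tried as a block and values were taken within slides. Replicate numbers were not taken as pairs of mice: the diet-centred correlation of same-numbered arrays ran from -0.24 to 0.50 over 8 pairs. Most same-numbered arrays share a slide, so this range cannot show whether the mice were paired.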

Additional observations from a re-analysis of the deposited data

How the results depend on the processing

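The count of genes called, 121, was 200 with slide as a random block, 42 with the percentile over unmarked spots, 65 with normexp, 44 with no background filter, 30 without slide 1 and 22 without slides 4 and 5, and 51 to 143 when each array was left out (51 without LIN replicate 5). With the replicate block it was 18, and Serpina12 stayed called in that pairing, although the numbers are not known to pair the mice. The count of members called, 1, was 0 with normexp, 0 with a probe required above background on all arrays and 0 in the authors' value table, neither of which holds Serpina12, and 0 without slides 4 and 5; it was 1 in each fit without a single array. Serpina12 passed in 29 of 31 settings that measured it, with differences of -1.60 to -0.38. The exceptions, with normexp and without slides 4 and 5, are -0.38 and -1.23. Apart from normexp, these settings start from the same background-subtracted intensities, and many leave out a single array. They therefore overlap, and their number is no independent support for the call. For the other members, none of their 296 values under other settings passed, and many of these values come from overlapping fits. The counts for the lists kept within 1.5 times, and for the female-biased list were 2 to 4. No pair of members passed with marked spots kept or with normexp. Differences near 0 changed sign, and none of these passed under any setting. Igf1 was 0.074 as the mean of its probes, in which PALM mouse 7 lacks the brightest probe, so that the value mixes probe levels and is no difference between diets; with marked spots kept, which fills that gap, the mean was -0.042. Igfals was -0.025 with slide as a fixed block, -0.0054 as a random block, -0.028 over unmarked spots, -0.0057 with quantile normalization, -0.047 without slide 1 and -0.075 to 0.11 without single arrays. Cish was 0.047 with the replicate block and -0.32 to 0.17 without single arrays. Bcl6 was 0.061 and 0.022 with slide as a fixed and a random block, 0.31 with the replicate block, 0.034 with median scaling, 0.053 with normexp, 0.21 without slide 1, 0.64 without slides 4 and 5 and -0.20 to 0.28 without single arrays. The cause of the other changes was not tested. Dim signal limits Serpina12, marked spots limit Ghr and Hsd3b5, and the spread between mice limits Cish, Bcl6 and Socs2.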

Other observations

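Genes whose pattern over mice was most like each remaining member were named by the same rule, as a description over 17 or 18 livers. Stat5b varied most like Rnf125, a ubiquitin ligase (r = 0.91), and Trib3, a stress-induced pseudokinase (r = 0.88). The brightest Igf1 probe varied most like Alas2, the haem synthesis enzyme of red cells (r = 0.88), and Snrpa, a spliceosome protein (r = 0.87). Igfals varied most like the mitochondrial tRNA synthetase Aars2 (r = 0.94) and Bscl2, the lipid droplet protein seipin (r = 0.93). Elovl3 varied most like the kinase Abl2 (r = 0.81) and the transcription factor Tfe3 (r = 0.80). Serpina12 varied most like Rab11b, a membrane traffic GTPase (r = 0.80), and Atraid (r = 0.75), which stood at 0.65 and 0.54 after centring on slide and diet. None of these genes passed the test between diets.

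Within slides the Cish difference between the diets ran from -2.42 to 2.55, and that of Bcl6 from -1.75 to 1.87. On slide 4 Cish was higher on LIN by 2.55 and Bcl6 differed by -1.63, and on slide 2 Cish differed by -1.04 and Bcl6 was higher on LIN by 1.87. Slides 1 and 3 also had opposite signs for the 2 genes, with Cish at 0.99 and -0.91 and Bcl6 at -1.75 and 0.71, whereas slide 5 had -2.42 for Cish and -0.12 for Bcl6. Each slide held 3 or 4 livers, so these values were not tested.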
